A study of Homo sapiens with 6 samples.

Results

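The 48 genes described here encode the nuclear part of respiratory complex I and the proteins that help to build it, and they were followed between the core (TC) and the margin (TM) of xenograft tumors. They were chosen by name alone, as protein-coding genes whose symbols start with NDUFA, NDUFB, NDUFC, NDUFS, NDUFV or NDUFAF, out of 60671 annotated genes. By role they were 7 core subunits, 9 accessory subunits of the matrix arm, 20 accessory subunits of the membrane arm, the acyl carrier NDUFAB1, 8 assembly factors, NDUFA4 and NDUFA4L2, which carry the family name but are not counted as complex I subunits, and the readthrough gene NDUFC2-KCTD14. The first 4 of these groups made up 37 subunits. A further 63 NDUF pseudogenes were left out. Of these, 57 were listed at 0 in each of the 6 samples, and the highest value was 2.28 TPM (NDUFB9P2).

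RNA-seq had been performed on tumors of the human breast cancer cell line MDA-MB-231, of the triple-negative type, grown after orthotopic injection into the mammary fat pads of young female NSG mice, which lack T, B and NK cells. Each zone was represented by 3 samples, from 3 mice per group by the methods, and whether a TC and a TM sample of the same number came from the same mouse was not stated. The labels call the cells wild type and name the injection as the sole treatment, so the groups shared host, line and injection and differed by label in the zone. The model rests on 1 cell line, and host stroma, vessels and myeloid cells remain in such mice. Values were TPM, a measure of transcript abundance per unit of length, with a sum per sample of 1000000, or of 994381 in TM replicate 3. The files do not give read depth. The p-values reflect only spread among these samples: that of each gene, drawn towards the spread of tested genes at a similar level.

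Complex I passes electrons from NADH to ubiquinone and pumps protons across the inner mitochondrial membrane. It is L-shaped. As a group, though not each of them, the nuclear core subunits carry the flavin and the iron-sulfur clusters of the matrix arm. The mitochondrially encoded ND subunits form the proton channels of the membrane arm, and accessory subunits surround both. Assembly factors join the modules together and leave the finished enzyme. The study was concerned with how purines, inosine above all, act on mitochondrial metabolism when nutrients are scarce, and the zones were sequenced to compare their gene activity.

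The labelled cell line was checked first. Summed TPM of VIM, CD44, EGFR, KRT8, KRT18 and KRT19 lay between 5217 and 6749 in each sample, and that of ESR1, PGR, EPCAM and CDH1 between 3.87 and 6.02. Sums of human genes that mark tissue types found in the host varied within TM. TPM was given for human genes, while the host is the mouse. A step that parts mouse from human reads is not given, so how far these sums reflect host cells is unknown. Summed TPM of 13 skeletal muscle markers was 201, 540 and 3.19 in the TM samples and 6.0 to 9.47 in TC, and that of 10 fibroblast markers read 483, 1025 and 91.2 in TM against 67.9 to 229.9 in TC. Sums for endothelium (28.2 to 33.6 in TC, 30.7 to 42.7 in TM, EMCN at 0) and macrophages (95.5 to 107 in TC, 102 to 109 in TM, C1QA and C1QB at 0) differed less. In each list 1 gene held most of the sum, with a mean of 28.6 TPM for endothelium and 88.9 TPM for macrophages. Only 2 of 8 endothelium and 3 of 10 macrophage markers were tested. Their log2 differences, TC minus TM, ran from -0.29 to 0.04 and from -0.80 to -0.0016. Lists for adipocytes (ADIPOQ and LEP at 0) and erythroid cells (HBA2 at 0) stayed at or below 6.93 TPM. The part of host cells in the differences reported was not tested. In bulk tissue, fewer cells of a type and less RNA per cell cannot be told apart.

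First, the levels of the genes were compared. Complex I transcripts were abundant. The median of the per-gene mean TPM was 102 over the 47 tested members and 12.1 over all 13861 genes tested, a gene being tested when 3 or more of the 6 samples reached 1 TPM. Together the 48 genes held 0.653%, 0.748% and 0.798% of all TPM in the TC samples and 0.722%, 0.674% and 0.640% in the TM samples, so the zones overlapped in this share. Accessory subunits of the membrane arm stood highest, with a median of 205 TPM, followed by the core (132 TPM), the matrix-arm accessory subunits (82.8 TPM) and the assembly factors (17.4 TPM).

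**Figure D1:**
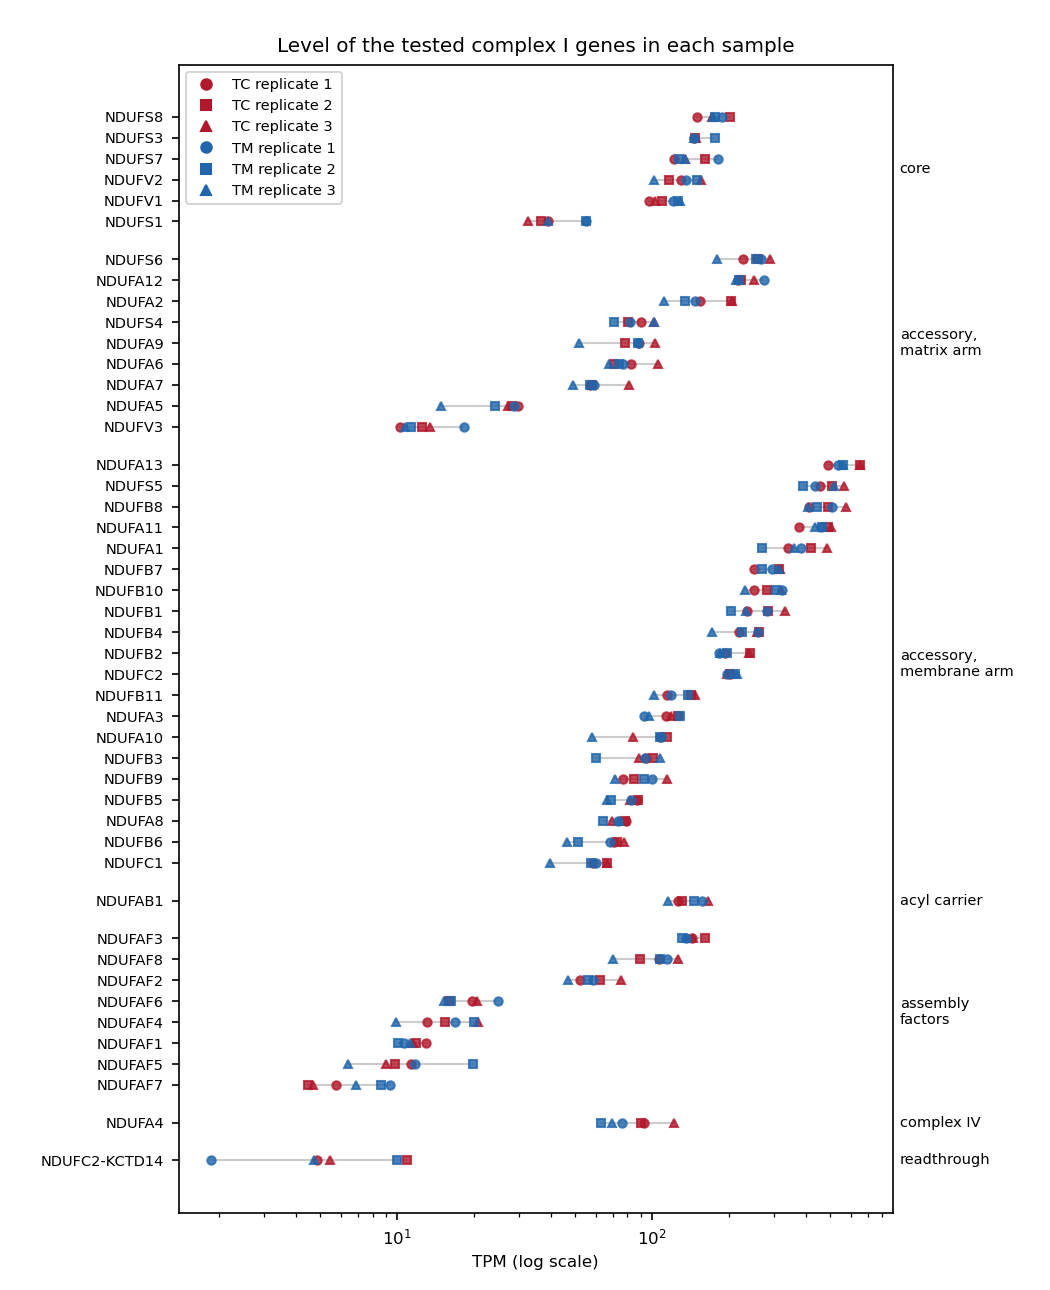
Level of tested complex I genes (rows, grouped by role) in the 3 TC (red) and 3 TM (blue) samples, in TPM on a log axis, with a grey line over the range. The genes span mean levels from 6.30 TPM (NDUFC2-KCTD14) to 574.5 TPM (NDUFA13), and in most rows red and blue symbols are mixed.

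Between the zones, 0 of 47 members were called by limma at an adjusted p under 0.05, a threshold passed by 19 of 13861 genes (0.137%). At an unadjusted p under 0.05, 3 members were higher in TC (NDUFA4, NDUFA2 and NDUFB6, where 1.93% of all genes were) and 3 were lower (NDUFAF7, NDUFS1 and NDUFV1, where 14.2% of all genes were). Without any threshold, 35 of 47 members were higher in TC, against 33.0% of all genes. The median difference, TC minus TM in units of log2(TPM + 1) as for each difference here, was 0.15 over members and -0.14 over all genes. TC values lay entirely above TM values for 5 members (the 3 named and NDUFAF1 and NDUFAF3), the background being 3.28%, and entirely below for the 3 lower members, the background being 18.9%. The median over members was 0.068 without TC replicate 3, with 27 of 47 higher, and 0.035 without TM replicate 3, with 26 of 47 higher. With mitochondrially encoded genes left out of the TPM total, the member median was 0.099, with 31 of 47 higher, and that of all genes -0.18. TC replicate 3 held the highest value of 21 members (44.7%, against 7.78% of all genes) and TM replicate 3 the lowest value of 24 members (51.1%, against 21.0%).

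**Figure D2:**
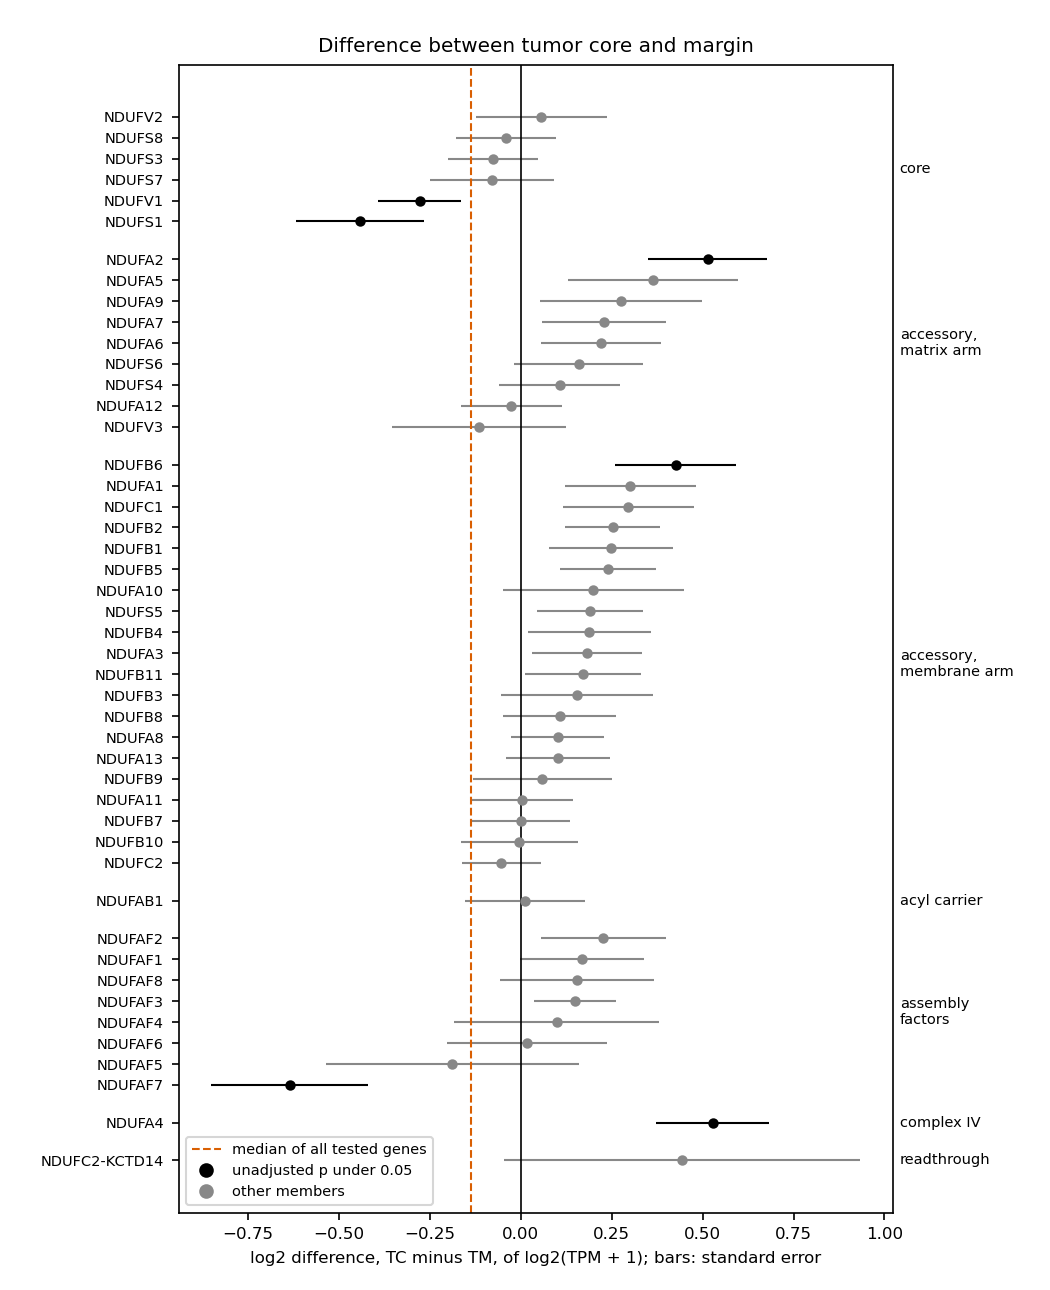
Log2 difference, TC minus TM, of log2(TPM + 1) for tested complex I genes, with the standard error from limma as bars, grouped by role. Core subunits lie mostly left of 0 and accessory subunits mostly right of it. Black points have an unadjusted p under 0.05, and the dashed line marks the median of all tested genes, -0.14.

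The 7 core subunits were the only role with a median below 0, at -0.08, and 6 of 7 were lower in TC. Of all tested genes, 9283 of 13861 were lower, with a median of -0.14. The core median thus lay 0.058 above that of all genes. The sign of the core median depended on the scaling: it was 0.10 after median-of-ratios scaling and 0.14 after removal of length and GC trends. NDUFS1 is the large subunit that carries several iron-sulfur clusters (GRCh38 chr2:206114817-206159603, minus strand). It was measured at 38.9, 36.5 and 32.4 TPM in TC (35.9 ± 3.25, SD, n = 3) and at 55.2, 54.8 and 38.9 TPM in TM (49.6 ± 9.28, SD, n = 3). TM replicates 1 and 2 stood well above the rest, while TM replicate 3 was close to the highest TC sample. The difference was -0.44 (SE 0.17, limma adjusted p = 0.267) and ran from -0.60 to -0.27 in the 12 alternatives that can alter a difference. The other 5 of the 17 alternatives, which change the filter, the block or the moderation, leave each difference as it is. Where the groups of a gene do not overlap, as here, its sign was fixed in advance in part of the 12. These are the 6 fits without 1 sample and the change of pseudocount.

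NDUFV1 binds NADH and the flavin at the entry of the electron path (chr11:67605653-67612554, plus strand). Its values were 97.4, 109 and 103 TPM in TC (103 ± 6.0, SD, n = 3) and 120.3, 127 and 128 TPM in TM (125 ± 4.19, SD, n = 3), so each TM sample exceeded each TC sample. The difference was -0.28 (SE 0.11, limma adjusted p = 0.284), and it was 0.0024 once length and GC trends were removed. NDUFS8, an iron-sulfur subunit and the most abundant of the core, had 149.9, 203 and 172 TPM in TC and 187, 176 and 172 TPM in TM. NDUFV2, which holds a further iron-sulfur cluster, was the only core gene with a positive difference (0.06, SE 0.18, adjusted p = 0.915). Its TC values of 129.7, 116 and 156 TPM overlapped the TM values of 136, 151 and 102 TPM, and its sign turned to -0.06 without TC replicate 3 and to -0.10 without TM replicate 3. NDUFS3 and NDUFS7, also core subunits, had differences of -0.07 and -0.08. Both signs depended on the scaling and the samples: NDUFS3 was at 0.10 and NDUFS7 at 0.10 after median-of-ratios scaling, NDUFS3 at 0.016 without TM replicate 2, and NDUFS7 at 0.011 without TC replicate 1 and 0.075 without TM replicate 1.

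Accessory subunits of the matrix arm had a median difference of 0.22, and 7 of 9 were higher in TC. This median was 0.07 without TC replicate 3 and 0.10 without TM replicate 3. NDUFA2, a small subunit with a thioredoxin-like fold (chr5:140638740-140647785, minus strand), differed most. It was measured at 154, 205 and 205 TPM in TC (188 ± 29.6, SD, n = 3) and at 147, 134 and 111 TPM in TM (131 ± 18.0, SD, n = 3). The groups did not overlap, although TC replicate 1 lay close to TM replicate 1. The difference was 0.51 (SE 0.16, limma adjusted p = 0.179), and it ran from 0.40 to 0.74 in these 12 alternatives.

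NDUFS6, a zinc-binding subunit and the most abundant of this arm, had 226, 259 and 289 TPM in TC and 267, 255 and 179 TPM in TM. Its low value in TM replicate 3 set the sign, since the difference was 0.16 with that sample and -0.02 without it. NDUFV3, a small subunit at the tip of the arm and the least abundant here, had 10.3, 12.5 and 13.4 TPM in TC and 18.3, 11.3 and 10.8 TPM in TM. Its difference of -0.11 (SE 0.24, adjusted p = 0.865) was the lowest of the accessory subunits and turned positive in 4 of these 12 alternatives.

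In the membrane arm, 18 of 20 accessory subunits were higher in TC, with a median difference of 0.18, which was 0.11 without TM replicate 3. The 18 included NDUFB7 at 3.0e-05 (SE 0.14) and NDUFA11 at 0.0042 (SE 0.14). With mitochondrially encoded genes left out of the TPM total, their differences were -0.052 and -0.047. NDUFB6 (chr9:32552999-32573184, minus strand) had the largest difference. Its values were 70.8, 72.8 and 77.4 TPM in TC (73.7 ± 3.40, SD, n = 3) and 68.4, 51.4 and 46.2 TPM in TM (55.3 ± 11.6, SD, n = 3). The groups did not overlap, with TM replicate 1 just below the lowest TC sample. The difference was 0.43 (SE 0.17, limma adjusted p = 0.258), and it ran from 0.31 to 0.60 in these 12 alternatives.

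NDUFA13, also known as GRIM-19 and the most abundant member, had 488, 651 and 653 TPM in TC and 535, 561 and 559 TPM in TM. TC replicate 1 was the lowest and the other two TC samples the highest, and the difference was 0.10 (SE 0.14, adjusted p = 0.788). NDUFC1, the least abundant gene of the arm, had 58.4, 66.6 and 66.5 TPM in TC and 60.4, 57.6 and 39.8 TPM in TM (difference 0.30, SE 0.18, adjusted p = 0.483), and without TM replicate 3 its difference was 0.11. NDUFC2, another small subunit of the arm, had the lowest difference (-0.05, SE 0.11, adjusted p = 0.862), with 202, 201 and 196 TPM in TC and 196, 211 and 215 TPM in TM. These sets overlapped, and the sign of NDUFC2 turned to 0.13 after median-of-ratios scaling and to 0.11 after removal of length and GC trends. The 16 other genes of the arm, among them NDUFB7 and NDUFA11, lay between NDUFB10, at -0.0037, and NDUFA1, at 0.30, or 0.15 without TM replicate 2. The sign of NDUFB10 turned with the samples left out, from -0.15 without TM replicate 3 to 0.088 without TM replicate 1.

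Promoters of the members were then examined for short motifs of regulators of respiratory genes. RefSeq (GRCh38.p14) gave the start of 40 of the 48 genes, and the 250 bases before it were searched on both strands. NRF1, a factor known for activating nuclear respiratory genes, was searched as GCGCA and GCGC parted by any 1 base, which 12.5% of members and 7.65% of 15843 protein-coding promoters held. It occurred before 5 of 26 accessory subunits and 0 of 6 core subunits. With 6 core promoters and a share of 7.65% over all promoters, these counts cannot set the roles apart. A GC box bound by SP1, GGGCGG, was present in 55% of members and 56.0% of all promoters, the ETS motif CCGGAAG in 15% and 11.8%, the YY1 motif AAGATGG in 2.5% and 3.35%, and the hypoxia response core ACGTG in 25% and 20.8%. No overlap occurs between the letters of these motifs in the windows printed. The windows of NDUFB4 (chr3:120596086-120596335, plus strand) and NDUFB6 (chr9:32573160-32573409, minus strand) are printed 5′ to 3′ as an example with and an example without the NRF1 motif. The choice was made among members with an NRF1 match or an unadjusted limma p under 0.05, as windows with at most 30 bases inside an annotated gene. NDUFB6 was eligible through its p alone, so these examples cannot relate the motif to the difference between the zones. Capitals mark NRF1 matches, 2 in NDUFB4, and none of the 5 motifs occurs in the NDUFB6 window.
NDUFB4: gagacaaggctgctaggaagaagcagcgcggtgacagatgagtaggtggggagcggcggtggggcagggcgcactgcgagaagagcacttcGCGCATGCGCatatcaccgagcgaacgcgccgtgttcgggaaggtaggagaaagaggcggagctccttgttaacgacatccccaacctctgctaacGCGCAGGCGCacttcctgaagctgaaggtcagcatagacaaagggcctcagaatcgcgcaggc
NDUFB6: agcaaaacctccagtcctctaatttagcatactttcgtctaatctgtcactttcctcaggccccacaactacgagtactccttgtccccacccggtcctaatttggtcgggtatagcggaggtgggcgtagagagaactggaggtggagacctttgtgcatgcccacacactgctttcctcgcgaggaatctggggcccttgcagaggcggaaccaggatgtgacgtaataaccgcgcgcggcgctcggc

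NDUFB4, a membrane-arm subunit, had 219, 263 and 258 TPM in TC and 259, 226 and 171 TPM in TM, with a difference of 0.19 (SE 0.17, adjusted p = 0.651) that was 0.024 without TM replicate 3. Its TC and TM values overlapped. A motif match is a description of the letters only.

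NDUFAB1, the mitochondrial acyl carrier protein that also serves fatty acid and lipoic acid synthesis, had 127, 130.3 and 165 TPM in TC (141 ± 21.3, SD, n = 3) and 157, 146 and 115 TPM in TM (139.6 ± 22.0, SD, n = 3). These values overlapped broadly, and the difference of 0.01 (SE 0.17, adjusted p = 0.982) changed sign in 4 of these 12 alternatives.

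The 8 assembly factors had a median difference of 0.12, and 6 of 8 were higher in TC. NDUFAF7, a methyltransferase that acts early in assembly (chr2:37231631-37253403, plus strand), had the largest negative difference of all members. It was measured at 5.77, 4.46 and 4.66 TPM in TC (4.96 ± 0.706, SD, n = 3) and at 9.35, 8.61 and 6.88 TPM in TM (8.28 ± 1.27, SD, n = 3). The groups did not overlap, and the gene was the least abundant assembly factor. The difference was -0.64 (SE 0.22, limma adjusted p = 0.202), and it ran from -0.75 to -0.44 in these 12 alternatives.

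NDUFAF2, which binds a late assembly intermediate, had the largest positive difference of this group (0.23, SE 0.17, adjusted p = 0.590). Its values of 52.3, 62.5 and 75.7 TPM in TC and 58.4, 56.2 and 46.7 TPM in TM overlapped, and the difference was 0.093 without TC replicate 3 and 0.13 without TM replicate 3. NDUFAF3, an early factor and the most abundant of the group, had 143, 160.5 and 144 TPM in TC and 135, 130.5 and 137 TPM in TM. Its groups did not overlap, but the difference was only 0.15 (SE 0.11, adjusted p = 0.588). The median of the group turned to -0.01 without TC replicate 3 and to -0.09 without TM replicate 3.

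NDUFA4, first described in complex I and now assigned to complex IV, had the smallest p of the members (chr7:10931951-10940256, minus strand). Its values were 92.7, 90.1 and 121 TPM in TC (101 ± 17.3, SD, n = 3) and 75.9, 63.1 and 69.6 TPM in TM (69.6 ± 6.40, SD, n = 3). The groups did not overlap, and the difference was 0.53 (SE 0.15, limma adjusted p = 0.151), or 0.39 to 0.71 in these 12 alternatives. NDUFA4L2, its relative known as a target of HIF-1, was close to 0, with 0, 0.16 and 0 TPM in TC and 0, 0 and 0.45 TPM in TM, and was the 1 member not tested. NDUFC2-KCTD14 shares exons with NDUFC2, so its level is uncertain. It had 4.86, 10.9 and 5.44 TPM in TC and 1.86, 9.98 and 4.71 TPM in TM, with a difference of 0.44 (SE 0.49, adjusted p = 0.723).

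**Figure D3:**
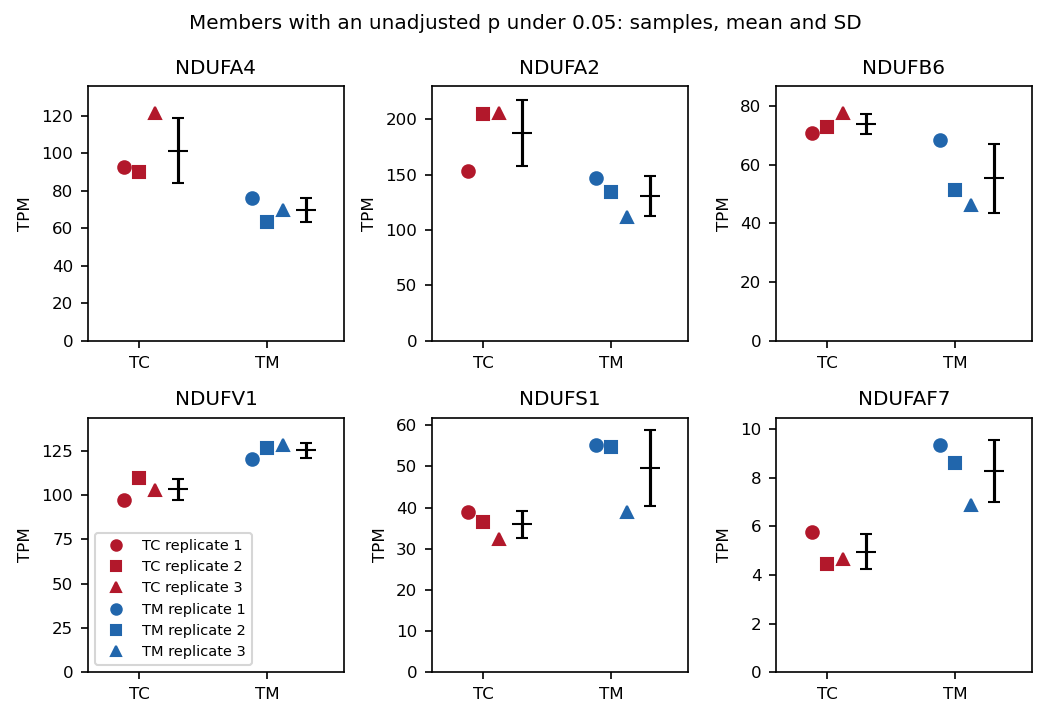
TPM in each of the 3 TC (red) and 3 TM (blue) samples for the 6 members with an unadjusted p under 0.05, with the mean and SD beside the points. NDUFA4, NDUFA2 and NDUFB6 (top) are higher in TC, and NDUFV1, NDUFS1 and NDUFAF7 (bottom) are lower, each without overlap.

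Genes on the opposite strand overlap several members. A protein-coding gene that reached 1 TPM overlapped 16 tested members on the other strand. They included NDUFS1, overlapped by EEF1B2, a translation elongation factor with means of 895 TPM in TC and 781 TPM in TM. NDUFA2 was overlapped by IK (86.1 and 92.4 TPM) and TMCO6, NDUFB6 by SMIM27 (15.1 and 8.71 TPM), and NDUFAF7 by CEBPZ (22.0 and 17.3 TPM) and PRKD3. The methods name an orientation setting for the alignment, but say neither whether the library kept strand nor whether the counting used it, so how far reads of such partners were parted is uncertain.

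Next, accessory and core subunits were set against each other within a sample, which does not depend on the scaling of the sample. Summed TPM of the 30 accessory subunits (NDUFAB1 included) divided by that of the 7 core subunits came to 7.0, 7.29 and 8.18 in the TC samples and 6.40, 5.94 and 6.61 in the TM samples. Each TC ratio exceeded each TM ratio. On the log2 scale, 26 of 30 accessory subunits were higher in TC. The count was 23 with mitochondrially encoded genes left out of the TPM total, and 21 without TC replicate 3 or without TM replicate 3. The median difference of the accessory subunits was 0.18, and that of the core subunits was -0.08. The gap of 0.25 ran from 0.19 (without TC replicate 3) to 0.33 when 1 sample was left out, and was 0.25 with quantile normalization and 0.21 with length and GC trends removed. Scalings with 1 factor per sample, the filters, the block and the moderation can hardly move it.

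**Figure D4:**
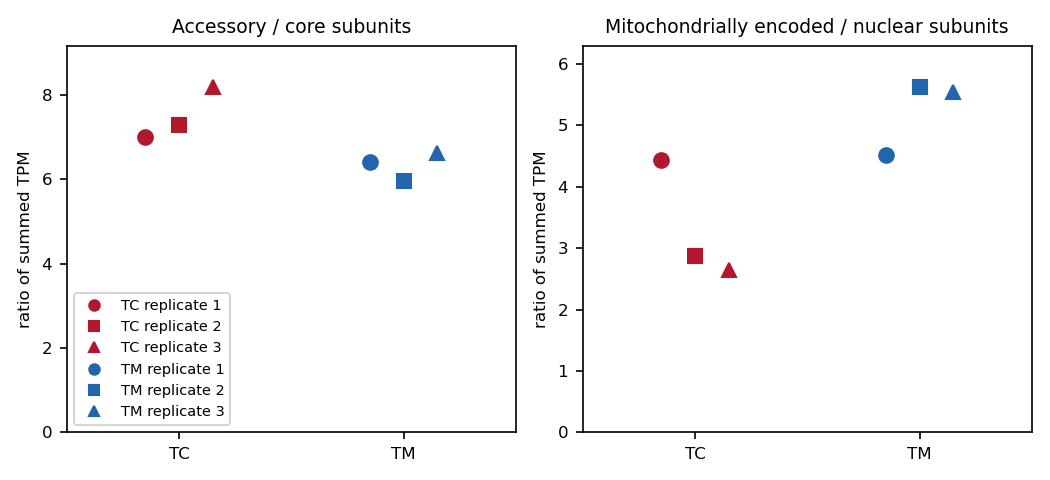
Ratios of summed TPM in each TC (red) and TM (blue) sample, with axes from 0. The accessory to core ratio (left) is higher in each TC sample than in each TM sample, and the ratio of mitochondrially encoded to nuclear complex I subunits (right) is lower in each TC sample.

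**Figure D5:**
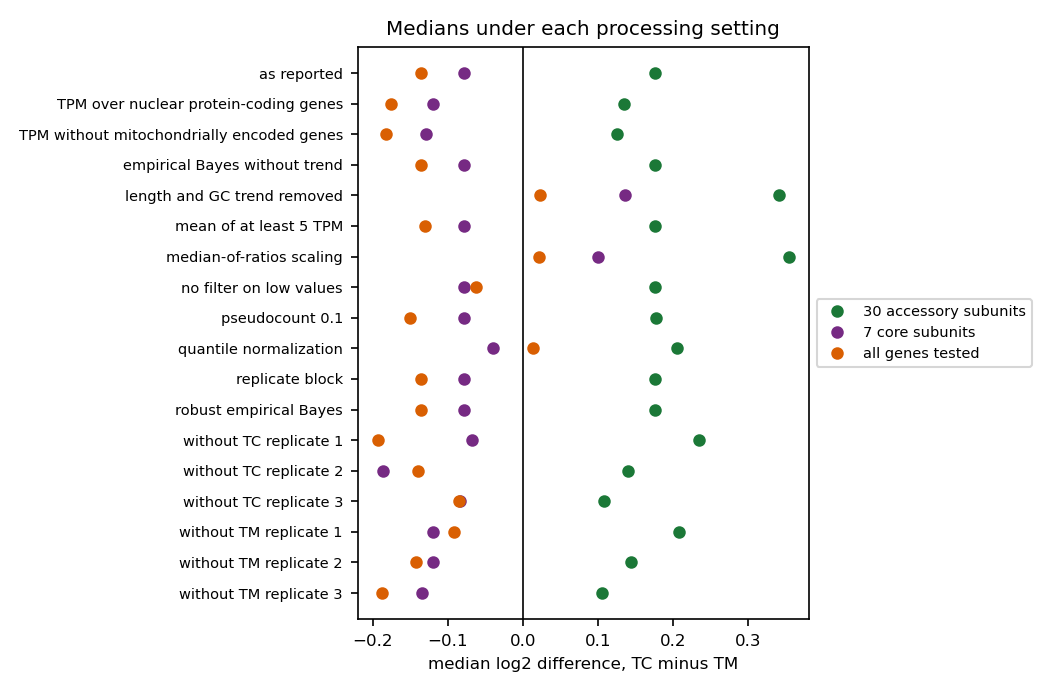
Median log2 difference, TC minus TM, of the 30 accessory subunits (green), the 7 core subunits (purple) and all tested genes (orange), as reported and in 17 alternatives. Green lies right of purple in each row, including those of settings that cannot move their gap, while purple crosses 0 in 2 of the alternatives.

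Transcript composition differed between the roles. Median GC content of the transcripts was 54.4% for core subunits, 49.5% for accessory subunits, 46.1% for assembly factors and 49.8% for all tested genes, and median length was 643, 657, 733.5 and 959 bases. Across the 37 subunits the difference correlated with GC content at a Spearman rho of -0.35, and across 13772 genes at -0.29. For length, rho was -0.02 and -0.07. The Pearson r, in the same order, was -0.30 and -0.22 for GC content and -0.31 and -0.085 for log2 length. These are correlations across genes of the same 6 libraries, and genes are not independent replicates. After removal of length and GC trends, the median difference was 0.14 for core subunits and 0.34 for accessory subunits.

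The 7 mitochondrially encoded subunits, the proton-pumping part of the membrane arm, completed the list of subunits. Negative differences were found for 7 of 7, against 9283 of 13861 tested genes, with a median of -0.69 against -0.14. At an unadjusted p under 0.05, 6 of these subunits were lower, against 14.2% of all genes. None was called (smallest adjusted p = 0.142). MT-ND5 had 869, 446 and 350 TPM in TC and 1022, 943 and 1218 TPM in TM, a difference of -1.04 (SE 0.30, adjusted p = 0.149), and MT-ND4L differed by -0.75 (SE 0.22, adjusted p = 0.148). The others were MT-ND1 (-0.62), MT-ND2 (-0.69), MT-ND3 (-0.37), MT-ND4 (-0.47) and MT-ND6 (-0.69). The ratio of mitochondrially encoded to nuclear subunits, by summed TPM, came to 4.44, 2.87 and 2.65 in the TC samples and 4.52, 5.63 and 5.54 in the TM samples. TC replicate 1 and TM replicate 1 were nearly equal, so the groups were barely apart. All mitochondrially encoded genes together took 8.82%, 6.08% and 6.30% of TPM in TC and 9.23%, 10.5% and 11.1% in TM.

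Of 13 assembly factors with other names, 4 had positive differences (30.8%, against 33.0% of all genes). FOXRED1, an oxidoreductase-like protein, had the smallest p. It had 17.8, 17.5 and 17.02 TPM in TC and 26.5, 25.9 and 34.6 TPM in TM, and the difference was -0.69 (SE 0.17, limma adjusted p = 0.107). ACAD9, an acyl-CoA dehydrogenase needed for assembly, differed by -0.44 (SE 0.17, adjusted p = 0.258). Among regulators, PPRC1, a coactivator of respiratory genes, had 24.7, 26.4 and 32.0 TPM in TC and 54.1, 53.0 and 41.3 TPM in TM (difference -0.81, SE 0.17, adjusted p = 0.0843). NRF1 differed by -0.58 (adjusted p = 0.197), MYC by -0.56 (adjusted p = 0.168), SP1 by -0.27 (adjusted p = 0.628) and HIF1A by 0.0026 (adjusted p = 0.993). The coactivator genes PPARGC1A and PPARGC1B did not pass the filter, with at most 0.68 and 1.75 TPM.

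For reference, 29 of 40 nuclear subunits of complexes II to V were higher in TC, against 33.0% of all genes. The median difference of these subunits was 0.11, and 0 were called. At an unadjusted p under 0.05, 7 were higher (1.93% of all genes) and 1 was lower (14.2% of all genes). Of 78 mitochondrial ribosomal protein genes, 51 were higher, with a median of 0.09, and 0 were called. The values of the 37 complex I subunits (27 higher, median 0.11) stand beside these without a test of the difference.

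Last, the genes that start back to back with a member were listed. A protein-coding gene on the opposite strand began within 1000 bp upstream, without overlap, for 12 of 47 members (25.5%) and for 10.1% of 11900 protein-coding genes. NDUFAF8, a partner of NDUFAF5, starts 148 bp from TEPSIN. NDUFAF8 had 106, 89.6 and 126 TPM in TC and 115, 108 and 70.3 TPM in TM (difference 0.15, SE 0.21, adjusted p = 0.785). That sign rested on TM replicate 3, since the difference was -0.063 without it, and it was 0.032 without TC replicate 3. TEPSIN, an adaptor of vesicle coats, had 6.93, 5.98 and 6.63 TPM in TC and 14.2, 12.8 and 16.7 TPM in TM (difference -1.04, SE 0.19, adjusted p = 0.0813). NDUFB5 starts 36 bp from the mitochondrial ribosomal gene MRPL47, and their differences were 0.24 and 0.30 (partner SE 0.18, adjusted p = 0.478). NDUFS6 starts 34 bp from another mitochondrial ribosomal gene, MRPL36, and their differences were 0.16 and -0.03 (partner SE 0.16, adjusted p = 0.955). NDUFB1 starts 20 bp from CPSF2, which encodes a factor of mRNA 3′ end processing, and their differences were 0.25 (0.13 without TC replicate 3) and -0.03.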

How the data were processed

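RNA was sequenced from 3 TC and 3 TM samples of MDA-MB-231 tumors, grouped by sample title. The authors deposited TPM per gene. Reads had been trimmed with SeqPrep and Sickle, and the submitters' processing notes name HISAT2, StringTie, RSEM and hg38. Versions, annotation release and a step that parts mouse from human reads are not given in the sources used here. TPM columns summed to 1000000, or to 994381 in TM replicate 3. TPM keeps no read depth, so the count test of the study could not be applied and no interval from counts is given.

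The 60671 annotated genes were named through GENCODE v29 and its companion tables (60647 with a symbol), and 259 assembled loci were left out. Genes that reached 1 TPM in 3 or more samples (13861) were fitted as log2(TPM + 1) in limma 3.58.1 (R 4.3.3), with a mean-variance trend, two-sided, and Benjamini-Hochberg adjustment over all tested genes. The log2(TPM + 1) scale understates changes of low genes. Calls required an adjusted p under 0.05. Members, roles and lists were chosen with earlier results of these data known. Named members were those with an unadjusted p under 0.05, the extremes of each role, and genes outside the roles; other names were chosen after their values were seen. Alternatives were another pseudocount, 2 filters, 4 scalings, 2 moderations, a replicate block, 6 fits each without 1 sample and, added after seeing the data, removal of length and GC trends. Values of 1 member and of 1 marker are not reported here. Figures used matplotlib 3.10.9.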

Additional observations from a re-analysis of the deposited data

How the results depend on the processing

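Across 17 alternatives, 0 members were called in each. The following values moved with the processing. The number of genes called, 19 as reported, was 7 with a pseudocount of 0.1, 1 without a filter, 6 with median-of-ratios scaling, 4 with quantile normalization, 12 without the trend, 47 with robust moderation and 4 with length and GC trends removed, and 1 to 17 when 1 sample was left out. Members with an unadjusted p under 0.05 numbered 8 higher (background 5.76%) and 1 lower (7.65%) with median-of-ratios scaling, 6 (5.32%) and 1 (8.11%) with quantile normalization, and 14 (6.52%) and 1 (6.87%) with length and GC trends removed. Without the trend, 2 were higher (1.58%) and 1 was lower (13.6%). Leaving out 1 sample gave 1 to 5 higher (1.46% to 2.46%) and 0 to 3 lower (9.73% to 16.8%). The median over all members was 0.099 without mitochondrially encoded genes and 0.11 over nuclear protein-coding genes. It was 0.33 with median-of-ratios scaling and 0.28 with length and GC trends removed, and ran from 0.035 to 0.18 when 1 sample was left out. In the same order of those 2 settings, the core median was 0.10 and 0.14 (-0.19 to -0.068 with 1 sample left out) and the membrane-arm accessory median 0.35 and 0.35. The matrix-arm accessory median was 0.40 with median-of-ratios scaling. The median of all tested genes was -0.14 as reported, and 0.021, 0.014 and 0.023 under median-of-ratios, quantile and length and GC settings.

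Among the members named by the rule, signs turned for NDUFV3 (0.054 with median-of-ratios scaling, 0.070 with quantile normalization, 0.11 without TM replicate 1, 0.11 with length and GC trends removed), NDUFC2 (0.13 with median-of-ratios scaling, 0.11 with length and GC trends removed), NDUFS8 (0.14 with median-of-ratios scaling, 0.064 without TC replicate 1, 0.23 with length and GC trends removed) and NDUFV1 (0.0024 with length and GC trends removed). They also turned for NDUFAB1 (-0.038 without mitochondrially encoded genes, -0.029 over nuclear protein-coding genes, -0.11 without TC replicate 3, -0.12 without TM replicate 3), NDUFV2 (-0.056 and -0.10 without those samples), NDUFC2-KCTD14 (-0.046 without TM replicate 1) and NDUFS6 (-0.021 without TM replicate 3). With 1 sample left out, the highest values were 0.27 for NDUFS6, 0.17 for NDUFV2, 0.11 for NDUFAB1 and 0.92 for NDUFC2-KCTD14, and the lowest -0.24 for NDUFV3 and -0.15 for NDUFS8. The cause was not tested.

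Replicate numbers were not taken to pair the samples, and whether they share a mouse is not stated: deviations from the group means correlated at 0.211, -0.121 and -0.165 between samples of the same number, and the highest correlation, 0.317, was between TC replicate 3 and TM replicate 2. With the replicate block, 1 gene and 0 members were called, and 2 members were higher (1.73%) and 2 lower (12.1%) at an unadjusted p under 0.05. Unknown depth and 3 samples a zone limit the precision of each difference.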
